A study of Saccharomyces cerevisiae with 27 samples.

Results

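The transcriptional response to a double-strand break was measured in wild-type budding yeast by comparing every array labelled wild type with a break (6 arrays) with every array labelled wild type without one (7 arrays), 13 of the 27 arrays of the series. All cells were haploid, of W303 origin and grown in YEP with 2% raffinose. They were held in G2/M, warmed, given galactose 30 min after the temperature shift and collected 90 min after the galactose. For every array the labels also list zymolase for 1 h at 30 °C. Galactose turns on the HO endonuclease, which cuts strains that carry its recognition site. All groups received galactose. The presence of a break is therefore taken to mean a strain that carries the site, and the break cannot be told apart from any other difference between those strains. Neither the clones used nor the agent of the G2/M arrest is given in the sources used here. The other 14 arrays are of scc2-4 cells, 7 with and 7 without a break under the same schedule. The scc2-4 allele inactivates the cohesin loader Scc2 at the raised temperature. They serve here only to show where the wild-type response differed.

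A broken chromosome end is trimmed to single-stranded DNA, which binds replication protein A and recruits the sensor kinase Mec1. Mec1 activates the kinase Rad53, and Rad53 activates Dun1, which relieves the repressor Rfx1 from some genes of ribonucleotide reductase, the enzyme that makes deoxyribonucleotides. In G2/M the checkpoint also holds back chromosome separation and mitotic exit, and new cohesin is loaded around the break and across the genome.

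Each group had 3 arrays in experiment 1. Experiment 2 had 4 wild-type arrays without a break and 3 with one. An array named 2_3 is the array of experiment 2 with replicate number 3. The labels call the replicates biological. Values are log2 RMA units. Column medians were 10.19 to 10.22 in experiment 1 and 9.76 to 9.79 in experiment 2, so experiment was a term in the fit. Over all genes the median absolute difference between arrays was 0.0358 to 0.116 within a group of an experiment, 0.0567 to 0.135 between the groups of an experiment and 0.369 to 0.402 between experiments. The first and last of these ranges do not meet, while the first and second overlap widely. Clustering the arrays of an experiment on the correlation of their deviations from the group means split them into subsets that cross the groups and that the labels do not name. In experiment 1 the arrays without a break 1_1 and 1_2 and the array with a break 1_1 were joined, and in experiment 2 the arrays without a break 2_1 and 2_2 and the array with a break 2_1. By median absolute difference the array with a break 1_1 was also near its subset (0.0567 and 0.0654), but the array with a break 2_1 was nearer to 2_3 with a break (0.0878) than to 2_1 or 2_2 without one (0.101 and 0.105). The standard errors do not allow for such closeness.

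The label of a break was checked first against HUG1, PLM2 and RNR3. HUG1 encodes a small inhibitor of ribonucleotide reductase. Its log2 values were 7.30, 7.50 and 7.23 without a break and 9.82, 10.12 and 9.54 with one in experiment 1, and 6.85, 7.19, 7.27 and 6.77 without and 9.97, 9.85 and 9.73 with one in experiment 2. Every array with a break was above every array without one. The log2 change was 2.67 ± 0.11 (SE; 6 against 7 arrays; 6.35-fold; limma adjusted p = 1.42e-08), the largest rise of the 5434 genes tested. PLM2 encodes a protein with a forkhead-associated domain that is induced by DNA damage. Its values were 8.39, 8.15 and 8.53 without a break and 9.46, 9.91 and 9.86 with one in experiment 1, and 7.44, 7.77, 7.39 and 6.87 without and 9.62, 9.29 and 9.04 with one in experiment 2. The groups did not overlap in either experiment, and the change was 1.69 ± 0.16 (3.22-fold; limma adjusted p = 6.66e-05). RNR3, the damage-inducible large subunit of ribonucleotide reductase, was at 8.59, 8.61 and 8.66 without a break and 9.49, 9.41 and 9.23 with one in experiment 1, and 7.62, 7.62, 7.56 and 7.34 without and 9.01, 9.02 and 8.92 with one in experiment 2. It changed by 1.12 ± 0.11 (2.18-fold; limma adjusted p = 6.66e-05), again with no overlap within an experiment. Both groups were lower in experiment 2 than in experiment 1.

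HO itself did not separate the groups. Its values were 13.49, 13.62 and 13.56 without a break and 13.60, 13.54 and 13.60 with one in experiment 1, and 13.45, 13.44, 13.56 and 13.53 without and 13.41, 13.55 and 13.54 with one in experiment 2, a change of 0.01 ± 0.04 (limma adjusted p = 0.872). Of 8 measured genes of the galactose regulon and HO, 0 passed limma's test (0 at an unadjusted p of 0.05), with a median change of 0.04. GAL1, the galactokinase, changed by 0.02 ± 0.03 and GAL7, the uridylyltransferase, by 0.06 ± 0.03. Of 7 a-specific and 4 alpha-specific genes, which mark mating type, 0 passed (1 and 2 at an unadjusted p of 0.05). CAN1, the arginine permease gene often deleted as a strain marker, was the only one of 8 measured marker genes past the test, at −0.17 ± 0.04 (limma adjusted p = 0.0128). It was picked out after its value was seen. Counts of 0 or 1 in lists of these sizes lie near the share of 7.45% called over all genes.

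**Figure D1:**
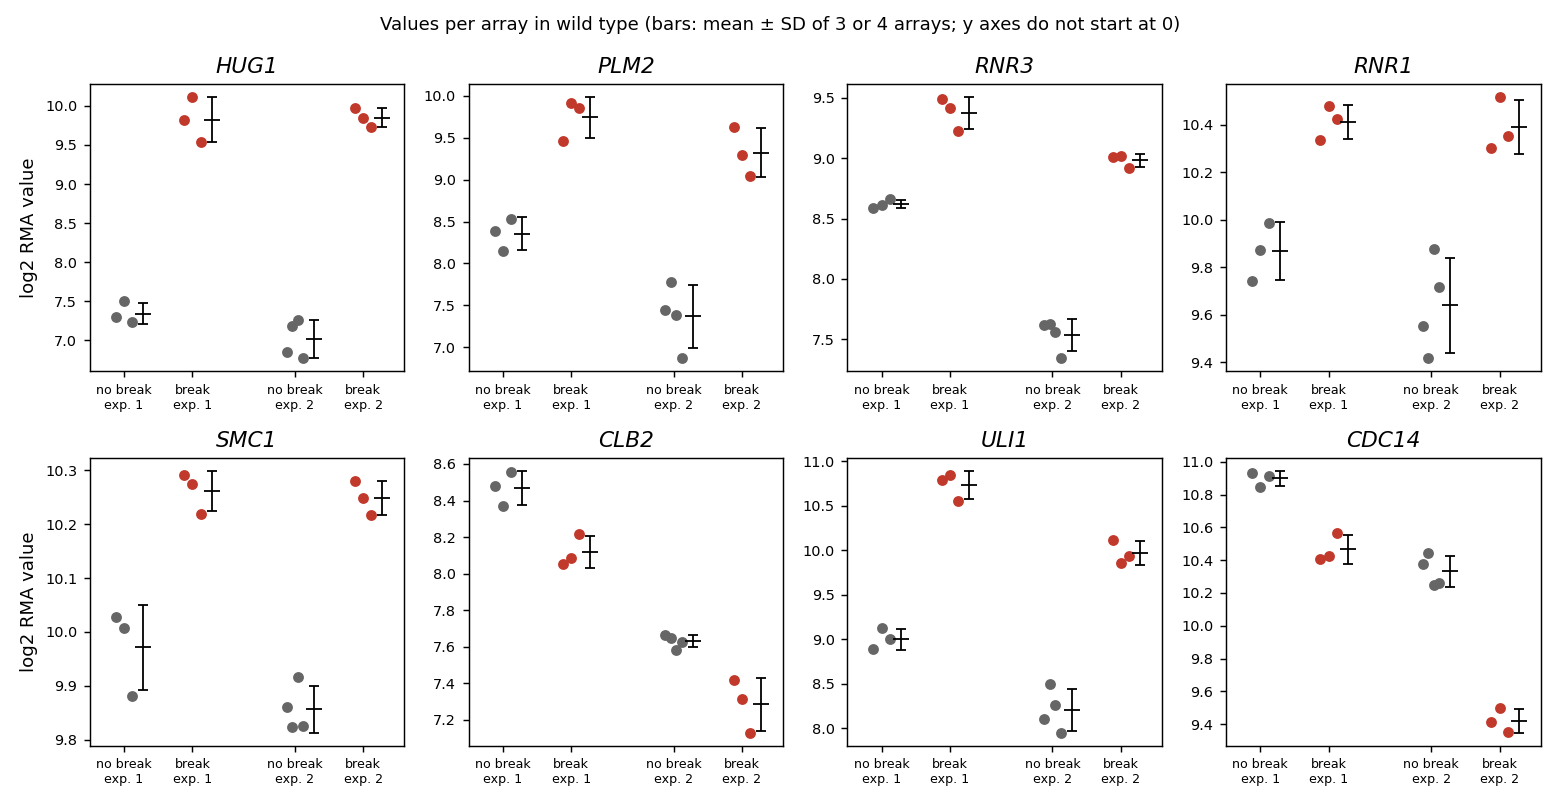
Log2 RMA values of HUG1, PLM2, RNR3, RNR1, SMC1, CLB2, ULI1 and CDC14 on each wild-type array (y axis) by group and experiment (x axis), with mean ± SD beside the points. Arrays with a break (red) and without (grey) did not overlap within an experiment for any of these 8 genes, and the distance between experiments differed from gene to gene.

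Across the 5434 genes, 405 passed limma's test at a Benjamini-Hochberg adjusted p of 0.05 (7.45%). Of these, 238 were higher with a break (4.38%) and 167 lower (3.07%). All 405 had the same sign in both experiments. They were chosen in a fit of both experiments together, which favours genes of equal sign, so this is a description. Most changes were small. Only 4 genes rose by more than 1 log2 unit (HUG1, ULI1, PLM2 and RNR3) and 0 fell by as much, while 17 rose and 6 fell by at least 0.5. The median change was 0.19 among the genes that rose, −0.21 among those that fell and −0.0058 over all genes. The groups did not overlap in either experiment, in the same direction, for 306 genes (5.63%), of which 193 were higher (3.55%) and 113 lower (2.08%), and 255 of the 405 were among them. At an unadjusted p of 0.05, 1268 genes passed. The count fell to 265, 234, 231 and 200 on leaving out array 1_3 or 2_1 without a break or array 2_2 or 2_3 with one, and rose to 1976 with the array subsets as a block, an alternative chosen after seeing the data in which all 405 were kept.

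All 4 genes of ribonucleotide reductase rose, with a median change of 0.61, where 4.38% of all genes were higher. RNR1, the main large subunit, was at 9.74, 9.87 and 9.99 without a break and 10.34, 10.48 and 10.42 with one in experiment 1, and 9.55, 9.42, 9.88 and 9.72 without and 10.30, 10.52 and 10.35 with one in experiment 2. Arrays with a break were higher throughout, by 0.65 ± 0.07 (1.57-fold; limma adjusted p = 0.000202). RNR2 and RNR4, the small subunits, rose by 0.58 ± 0.06 (limma adjusted p = 0.000107) and 0.38 ± 0.04 (limma adjusted p = 0.000173). Among 6 regulators of the enzyme 2 rose, HUG1 and DUN1. DUN1, the kinase that relieves repression of some of these genes, was at 10.04, 9.93 and 10.03 without a break and 10.40, 10.46 and 10.48 with one in experiment 1, and 9.94, 10.03, 10.10 and 9.99 without and 10.82, 10.61 and 10.59 with one in experiment 2. It rose by 0.56 ± 0.05 (limma adjusted p = 6.66e-05), and 2_1 was the highest array with a break. SML1, an inhibitor of the large subunit, and DIF1, which brings the small subunits into the nucleus, changed by 0.07 ± 0.04 and −0.03 ± 0.06. RFX1, a repressor of some genes of this set, was at 0.02 ± 0.07 and WTM1, which anchors the small subunits in the nucleus, at 0.12 ± 0.06. These 4 did not pass (limma adjusted p = 0.259 to 0.859), so the rise covered the subunit genes, HUG1 and the kinase but was not detected for the other regulators.

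Of 13 measured genes in the list of forkhead-associated factors and targets of MBF, the factor that drives late G1 transcription, 9 rose and 0 fell, with a median of 0.20. The share of all genes that were higher was 4.38%. CDC21, thymidylate synthase, rose by 0.46 ± 0.06 (limma adjusted p = 0.000515) and POL12, a subunit of DNA polymerase alpha, by 0.29 ± 0.07 (limma adjusted p = 0.0182; 0.27 and not past the test without array 2_3 with a break). TOS4, the relative of PLM2, was at 0.20 ± 0.06 (limma adjusted p = 0.043). The groups overlapped in both experiments for TOS4, and its call was lost on leaving out any 1 of 10 arrays, all but 1_3 and 2_2 without a break and 1_1 with one. MSH6 of mismatch repair, the MBF co-repressor NRM1, POL1 of polymerase alpha and the ligase CDC9, named after their values were seen, rose by 0.24, 0.22, 0.19 and 0.16. The ninth member was MCD1. The S-phase cyclins CLB5 and CLB6 were at −0.02 ± 0.04 and 0.01 ± 0.04.

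The checkpoint list, from sensors to effector kinases, had 19 measured genes. DUN1, RAD53 and MRC1 rose and 0 fell (median 0.03), where 4.38% of all genes were higher. RAD53, the effector kinase above Dun1, rose by 0.35 ± 0.07 (limma adjusted p = 0.00696) without overlap in either experiment. MRC1, the replication-fork mediator of Rad53 activation, rose by 0.19 ± 0.05 (limma adjusted p = 0.0299), a call lost without array 1_3 or 2_1 without a break or array 1_1, 2_1, 2_2 or 2_3 with one. The sensor kinase genes MEC1 and TEL1 were at −0.01 ± 0.05 and 0.05 ± 0.06, and RAD9, the break adaptor, at 0.07 ± 0.05. RAD17 of the checkpoint clamp was at 0.12 ± 0.06 (limma adjusted p = 0.263).

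Of the 18 measured genes of strand exchange, 7 rose and 0 fell, with a median of 0.11. All 3 subunits of replication protein A, which coats single-stranded DNA, were among them. RFA1 rose by 0.31 ± 0.05 (limma adjusted p = 0.00299), RFA2 by 0.30 ± 0.03 (limma adjusted p = 0.000168) and RFA3, named after its value was seen, by 0.15 ± 0.03 (limma adjusted p = 0.00946). RAD52, which loads the recombinase, was at 10.12, 10.12 and 10.14 without a break and 10.35, 10.45 and 10.36 with one in experiment 1, and 9.78, 9.69, 9.81 and 9.80 without and 10.06, 10.11 and 9.89 with one in experiment 2. It rose by 0.25 ± 0.04 (limma adjusted p = 0.00208), with the same order of the groups in both experiments. RAD54, a DNA translocase of strand exchange, rose by 0.30 ± 0.07 (limma adjusted p = 0.0202). Its change was 0.10 in experiment 1, where the groups overlapped, against 0.48 in experiment 2. Without array 2_2 or 2_3 with a break RAD54 did not pass (0.29 and 0.29). Its relative RDH54 was at 0.14 ± 0.06 (limma adjusted p = 0.193).

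Among 9 genes of end resection 0 passed with limma (3 at an unadjusted p of 0.05), a count near the share of 7.45% called over all genes. All 9 estimates were above 0 and the median was 0.07. TOP3, a topoisomerase, was at 0.21 ± 0.07, RAD50, of the Mre11 complex, at 0.17 ± 0.05, and DNA2 and SAE2, nuclease and nuclease cofactor, at 0.12 ± 0.05 and 0.12 ± 0.07. Among 6 genes of end joining 0 also passed (0 at an unadjusted p of 0.05) and the median was −0.01.

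Of 21 genes of excision repair and other damage-induced repair, 5 rose and 0 fell (median 0.09). DIN7, a damage-inducible mitochondrial nuclease, was at 8.30, 8.31 and 8.24 without a break and 8.74, 8.77 and 8.53 with one in experiment 1, and 7.64, 7.62, 7.78 and 7.71 without and 8.46, 8.43 and 8.43 with one in experiment 2. Arrays with a break were higher in both experiments, by 0.58 ± 0.06 (limma adjusted p = 0.000168). RAD16, of global genome nucleotide excision repair, rose by 0.46 ± 0.06 (limma adjusted p = 0.0011) and MAG1, a DNA glycosylase, by 0.24 ± 0.04 (limma adjusted p = 0.00596). OGG1, the glycosylase for oxidised guanine, was at 0.24 ± 0.07 (limma adjusted p = 0.0572). In postreplication repair POL30, the sliding clamp, rose by 0.26 ± 0.04 (limma adjusted p = 0.00349). RAD30, a translesion polymerase, was lower by −0.17 ± 0.04 (limma adjusted p = 0.035), a call lost without any 1 of 9 arrays, all but 1_3 and 2_4 without a break and 1_1 and 2_1 with one. MMS2 and RAD6, ubiquitin-conjugating proteins of this pathway, were at 0.14 ± 0.05 and −0.14 ± 0.08, and did not pass.

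Several cohesin genes rose. The ring that holds sister chromatids together consists of Smc1, Smc3, Mcd1 and Irr1, with Pds5 bound to it. SMC1 was at 10.03, 10.01 and 9.88 without a break and 10.29, 10.27 and 10.22 with one in experiment 1, and 9.86, 9.82, 9.92 and 9.82 without and 10.28, 10.25 and 10.22 with one in experiment 2. The arrays with a break spanned 10.22 to 10.29 over both experiments and all lay above the arrays without one, a change of 0.34 ± 0.03 (1.27-fold; limma adjusted p = 9.82e-05). PDS5 was at 11.09, 11.11 and 11.01 without a break and 11.47, 11.39 and 11.34 with one in experiment 1, and 10.97, 10.94, 10.9999 and 10.93 without and 11.52, 11.43 and 11.39 with one in experiment 2, and rose by 0.41 ± 0.04 (limma adjusted p = 6.66e-05). IRR1 rose by 0.43 ± 0.07 (limma adjusted p = 0.00299) and the kleisin MCD1 by 0.31 ± 0.05 (limma adjusted p = 0.00219). SMC3 was at 0.20 ± 0.07 with overlap in both experiments and did not pass (limma adjusted p = 0.0867). In all, 4 of 10 genes of the cohesin list rose and 0 fell (median 0.13), where 4.38% of all genes were higher. The loader genes SCC2 and SCC4 were at 0.06 ± 0.04 and 0.01 ± 0.04, and ECO1, the acetyltransferase that locks the ring, at −0.16 ± 0.06.

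In the related Smc5/6 complex SMC6 rose by 0.29 ± 0.04 (limma adjusted p = 0.000514) and the other 7 genes did not pass (median 0.01). Among 14 genes of securin and the spindle checkpoint, PDS1 alone passed. Single calls in lists of these sizes lie near the share of 4.38% of all genes that were higher. PDS1 encodes securin, which the checkpoint stabilises to keep sisters together. Its values were 8.60, 8.58 and 8.58 without a break and 8.84, 8.80 and 8.88 with one in experiment 1, and 8.25, 8.31, 8.17 and 7.99 without and 8.64, 8.46 and 8.44 with one in experiment 2, higher with a break in both experiments, by 0.30 ± 0.05 (limma adjusted p = 0.0052). CDC20, the activator that directs securin to destruction, was at −0.16 ± 0.05 (limma adjusted p = 0.0507), with non-overlapping groups in experiment 1 only.

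Of 13 silencing genes 1 rose and 0 fell, counts near the shares over all genes (4.38% higher and 3.07% lower). ESC8, a silencing factor, was at 8.73, 8.82 and 8.67 without a break and 9.16, 9.14 and 9.13 with one in experiment 1, and 8.49, 8.55, 8.65 and 8.60 without and 9.39, 9.26 and 9.27 with one in experiment 2. It rose by 0.58 ± 0.06 (limma adjusted p = 8.1e-05). RIF1 and RAP1, telomere proteins, were at 0.14 ± 0.04 and −0.11 ± 0.05, and SIR4 at −0.11 ± 0.05. Of 37 proteasome genes 9 rose and 0 fell, and 35 of the 37 estimates were above 0, with a median of 0.08. Over all 5434 genes 2570 estimates were above 0. UMP1, the assembly chaperone, rose by 0.21 ± 0.04 (limma adjusted p = 0.00684), PRE3, a core protease subunit, by 0.15 ± 0.03 (limma adjusted p = 0.0125) and the adaptor ECM29 by 0.21 ± 0.06 (limma adjusted p = 0.0405; lost without any 1 of 9 arrays, all but 1_1, 1_2 and 2_3 without a break and 1_3 with one). The count of 9 was 2 without array 1_2 or 2_3 with a break and 3 to 5 without array 1_1, 1_3, 2_1, 2_2 or 2_3 of those without a break or array 1_1 or 2_2 with one.

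**Figure D2:**
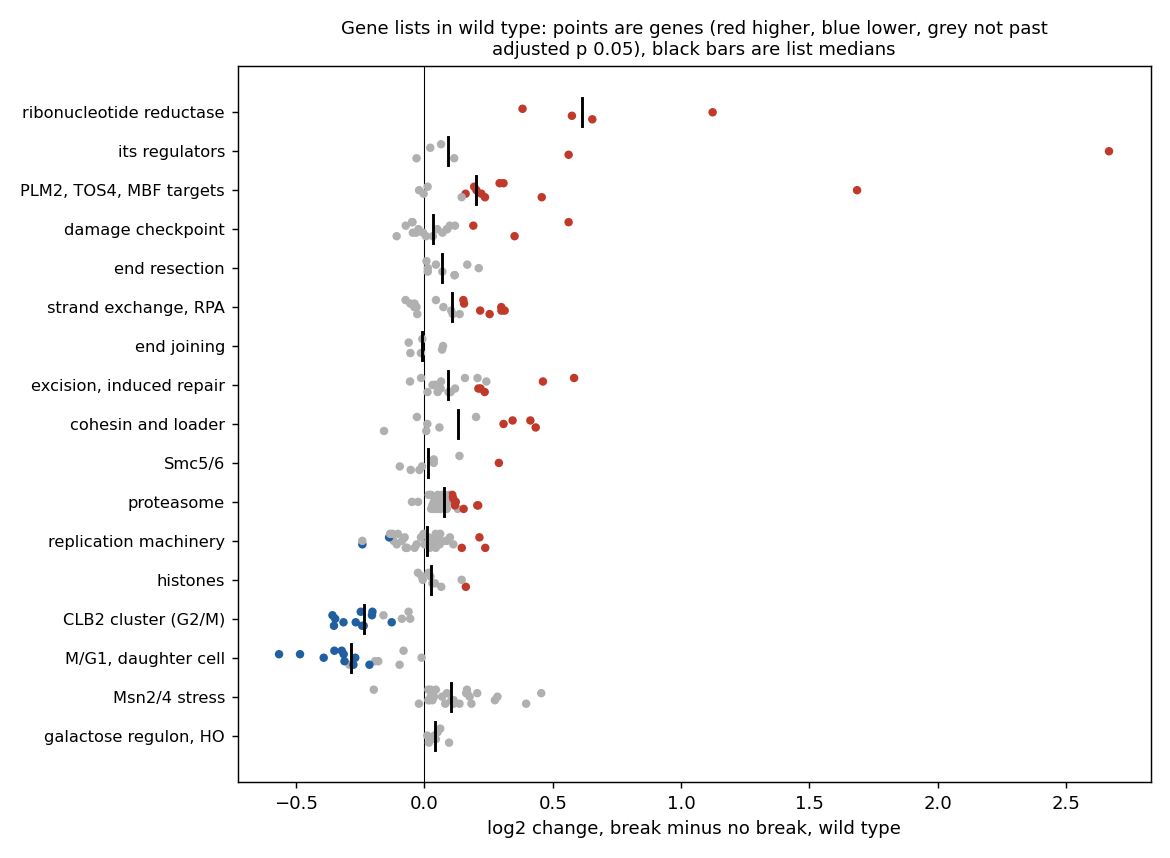
Log2 change with a break in wild type (x axis) for the measured genes of 17 lists (y axis), with called genes in red (higher) or blue (lower) and the list median as a black bar. The ribonucleotide reductase genes lie furthest to the right, and the CLB2 cluster and the M/G1 genes lie to the left of 0.

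Genes of late mitosis and of the M/G1 boundary were lower with a break. In these bulk cultures fewer cells in a phase and less RNA per cell cannot be told apart. Of 15 measured genes of the CLB2 cluster, which is transcribed in G2/M, 11 fell and 0 rose, and all 15 estimates were below 0 (median −0.24). Over all 5434 genes 2864 estimates were below 0 and 3.07% of genes were called lower. Some lists without a called gene also had a nearly uniform sign. CLB2, the main mitotic cyclin, was at 8.48, 8.37 and 8.55 without a break and 8.05, 8.08 and 8.22 with one in experiment 1, and 7.66, 7.65, 7.58 and 7.63 without and 7.42, 7.31 and 7.13 with one in experiment 2. Every array with a break was below the arrays without one in its experiment, by −0.35 ± 0.05 (limma adjusted p = 0.0011). HOF1, a cytokinesis protein, and KIN3, a mitotic kinase, changed by −0.36 ± 0.06 (limma adjusted p = 0.003) and −0.35 ± 0.06 (limma adjusted p = 0.00503). CLB1, the other cyclin of the cluster, was at −0.32 ± 0.08 (limma adjusted p = 0.0284), with overlap in experiment 2, and its call was lost without array 1_3 or 2_4 without a break or array 1_2, 2_1 or 2_3 with one. The count of 11 was 6 or 7 without array 1_2, 1_3, 2_1 or 2_4 of those without a break or array 1_2 or 2_3 with one.

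Of 16 M/G1 and daughter-cell genes 10 fell and 0 rose, where 3.07% of all genes were lower. Again all 16 estimates were below 0 (median −0.28). DSE1, a cell wall degradation protein of daughter cells, was at 9.41, 9.30 and 9.24 without a break and 8.95, 8.89 and 8.87 with one in experiment 1, and 8.66, 8.80, 8.36 and 8.38 without and 7.90, 7.70 and 7.94 with one in experiment 2, a change of −0.57 ± 0.08 (limma adjusted p = 0.00134). FAR1, the inhibitor of G1 cyclin kinase, changed by −0.48 ± 0.09 (limma adjusted p = 0.00606) and EGT2, which acts in cell separation, by −0.39 ± 0.06 (limma adjusted p = 0.00329). DSE2, a glucanase of daughter cells, was at −0.35 ± 0.08 (limma adjusted p = 0.0237), which did not pass without array 2_1, 2_2 or 2_3 with a break. Changes of the 3 G1 cyclin genes were small. CLN1 was at −0.14 ± 0.04 (limma adjusted p = 0.0289; lost without array 1_3 or 2_1 without a break or 1_1, 2_1 or 2_3 with one), CLN2 at −0.08 ± 0.04 and CLN3 at −0.13 ± 0.06. PCL2, a cyclin of the kinase Pho85, was at −0.16 ± 0.06 (limma adjusted p = 0.109).

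Histone and replication genes showed no common direction. Their counts of calls lay near the shares over all genes (4.38% higher and 3.07% lower). Of 10 histone genes, CSE4, the centromeric variant, rose by 0.16 ± 0.04 (limma adjusted p = 0.0218; lost without array 2_2 or 2_3 with a break) and the other 9 did not pass. HHO1, the linker histone, was at 0.15 ± 0.04, HTA1 at 0.07 ± 0.03 and HTZ1, the H2A variant, at −0.02 ± 0.05. HTA1 and HTA2 are near-identical copies, so their signals are uncertain. Among 34 genes of the replication machinery 3 rose and 2 fell (0 without array 2_3 with a break; median 0.01). CDC45, of the replicative helicase, rose by 0.24 ± 0.05 (limma adjusted p = 0.0174) and PRI2, a primase subunit, by 0.21 ± 0.04 (limma adjusted p = 0.0059). CDC6, which loads the helicase, was at −0.24 ± 0.05 (limma adjusted p = 0.0188), a call lost without array 2_3 with a break, and MCM7, a helicase subunit, at −0.24 ± 0.08 (limma adjusted p = 0.082).

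Chromosome VI had the largest share of falls of the 16 chromosomes. The labels name chromosome VI as the site of the break in one field and chr.iv in another, and they do not give its position. Of 117 measured genes of chromosome VI, 21 were lower with a break (17.9%, against 3.07% of all genes) and 4 were higher. Chromosome IV had 14 of 704 genes lower (1.99%) and 34 higher (4.83%), counts that ranged from 5 to 15 and from 15 to 32 on leaving out 1 array. On the other 14 chromosomes the share of lower genes was 0.676% to 4.65%. Of the 55 genes of the right arm 17 were lower, and of the 62 of the left arm 4. The count of 21 was 13 or 12 without array 2_2 or 2_3 with a break, and the count of 4 was 2 without array 2_1 without a break.

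The largest change of chromosome VI was a rise. ULI1, a gene linked to the unfolded protein response, was at 8.89, 9.12 and 8.998 without a break and 10.79, 10.85 and 10.55 with one in experiment 1, and 8.11, 8.50, 8.26 and 7.95 without and 10.11, 9.85 and 9.94 with one in experiment 2. The groups were apart in both experiments, by 1.75 ± 0.08 (3.36-fold; limma adjusted p = 4.14e-08), which made it the rise next to HUG1 in size over all genes. The list of 14 other genes of the unfolded protein response had 0 calls by limma (1 at an unadjusted p of 0.05) and a median of 0.03. A count of 0 among 14 genes lies near the share of 7.45% called over all genes. CDC14 lies 2 genes beyond ULI1 toward the right telomere and encodes the phosphatase of mitotic exit. It was at 10.93, 10.85 and 10.91 without a break and 10.41, 10.43 and 10.57 with one in experiment 1, and 10.38, 10.45, 10.25 and 10.26 without and 9.41, 9.50 and 9.35 with one in experiment 2. Within each experiment every array with a break was lower, by −0.69 ± 0.08 (1.61-fold; limma adjusted p = 0.000202), the largest fall over all genes. HIS2, histidinol phosphatase, is the next gene on the other side of ULI1. Its values were 10.25, 10.21 and 10.25 without a break and 9.79, 9.94 and 10.02 with one in experiment 1, and 9.79, 9.86, 9.91 and 9.97 without and 9.09, 9.09 and 9.22 with one in experiment 2, a change of −0.55 ± 0.07 (limma adjusted p = 0.00075), lower on all arrays with a break within each experiment. ROG3, an arrestin-like adaptor 4 genes from ULI1, changed by −0.42 ± 0.07 (limma adjusted p = 0.00424).

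Positions were counted from ULI1 because it held the largest change, a choice made after its value was seen, so the following counts are a description. Within 25 measured genes of ULI1 on either side, ULI1 included, 17 of 51 genes were lower. Among the 10 genes on the left side next to ULI1, 4 were lower, 5 of the next 10 and 3 of the 10 after those, with median changes of −0.16, −0.097 and −0.13. Among the 10 genes on its right side 4 were lower (median −0.14), 0 of the next 10 (median −0.0015) and 2 of the last 10 (median −0.035). On the left 1 of the 10 genes at positions 31 to 40 was lower (median 0.0025). Of the 46 genes more than 40 positions to the left 2 were lower (median −0.013). Of the 8 genes next to ULI1, 4 on each side and named for their place, 6 were lower and 2 did not pass. On the left these were ROG3, PES4 (−0.12 ± 0.04; limma adjusted p = 0.119), LSB3 (−0.34 ± 0.07) and HIS2. On the right they were ECO1 (−0.16 ± 0.06; limma adjusted p = 0.116), CDC14, PTR3 (−0.28 ± 0.05) and MET10 (−0.29 ± 0.05). LSB3, PTR3 and MET10 act in actin organisation, amino acid sensing and sulphite reduction. SMC1 also lies on chromosome VI, 31 genes to the left of ULI1, and was higher.

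**Figure D3:**
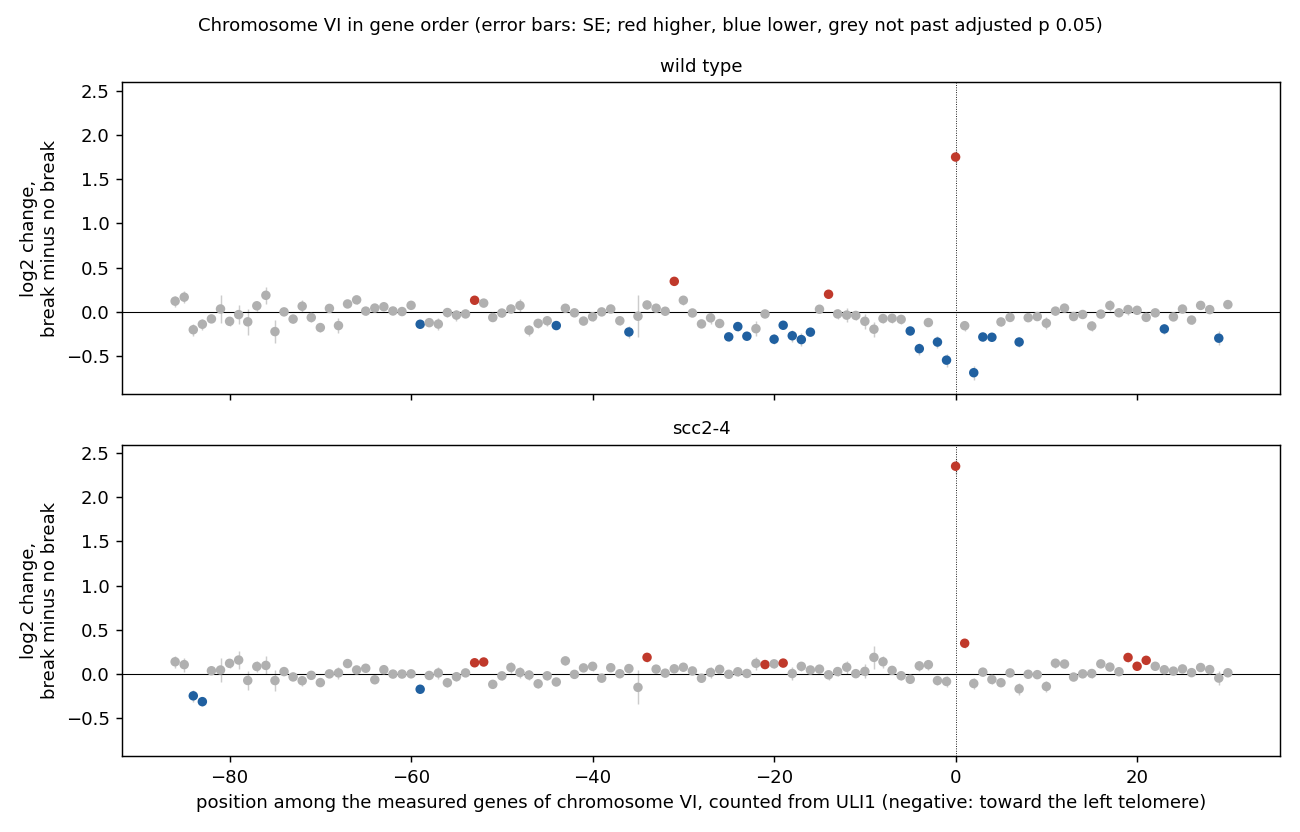
Log2 change with a break ± SE (y axis) for the 117 measured genes of chromosome VI in gene order counted from ULI1 (x axis), in wild type (upper panel) and scc2-4 (lower panel). In wild type 21 genes were lower (blue), 17 of them within 25 genes of ULI1, whereas 3 genes were lower in scc2-4, all more than 40 genes from ULI1.

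The remaining large rises were of mixed function. SIP18, a hydrophilin of the dehydration response, was at 11.57, 11.40 and 10.97 without a break and 12.20, 12.34 and 11.94 with one in experiment 1, and 11.90, 11.74, 11.62 and 11.36 without and 12.67, 12.47 and 12.64 with one in experiment 2. It rose by 0.89 ± 0.11 (limma adjusted p = 0.000283), by similar amounts in both experiments (0.85 and 0.94). PAI3, an inhibitor of the vacuolar protease Pep4, rose by 0.67 ± 0.11 (limma adjusted p = 0.00329), the putative zinc-finger gene YPR015C by 0.65 ± 0.08 (limma adjusted p = 0.000535) and FRD1, soluble fumarate reductase, by 0.64 ± 0.07 (limma adjusted p = 0.000185). UIP4, a nuclear envelope protein, was at 0.62 ± 0.16 (limma adjusted p = 0.0353). It changed by 0.17 in experiment 1 against 1.02 in experiment 2, and its call was lost without any 1 of 9 arrays, all but 1_1 and 1_2 without a break and 1_2 and 1_3 with one. HXT3, a hexose transporter with close paralogs, was at 0.60 ± 0.17 (limma adjusted p = 0.0489), a call lost without any 1 of 11 arrays, all but 1_3 without a break and 1_1 with one. YLL066W-B, from a repeated subtelomeric family, rose by 0.75 ± 0.07 (limma adjusted p = 6.66e-05) on the probe set used and by 0.23 ± 0.085 (limma adjusted p = 0.123) on another probe set, so its level is uncertain.

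Among the remaining falls, PHO5, the secreted acid phosphatase, was at 10.91, 11.08 and 11.46 without a break and 10.76, 10.84 and 11.02 with one in experiment 1, and 10.21, 10.30, 10.14 and 10.07 without and 9.41, 9.51 and 9.19 with one in experiment 2. The groups overlapped in experiment 1 and were apart in experiment 2, with a change of −0.56 ± 0.11 (limma adjusted p = 0.00901). PHO11, a related acid phosphatase with a near-identical copy in PHO12, changed by −0.53 ± 0.11 (limma adjusted p = 0.0103). The other 15 measured genes of the phosphate regulon did not pass (list median −0.09), among them PHO3, at −0.18 ± 0.18, and VTC3, of polyphosphate synthesis, at −0.17 ± 0.06. ATF2, an alcohol acetyltransferase, changed by −0.59 ± 0.13 (limma adjusted p = 0.0148), and its groups overlapped in experiment 1. The uncharacterised IRC8 changed by −0.37 ± 0.04 (limma adjusted p = 0.000129) and the subtelomeric reading frame YEL076C-A by −0.39 ± 0.07 (limma adjusted p = 0.0059).

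Several broad programmes held no called gene in the fit of both experiments, where 7.45% of all genes were called. Of 29 stress targets of Msn2 and Msn4, 0 passed with limma (12 at an unadjusted p of 0.05), although 27 of 29 estimates were above 0 and the median was 0.11. GRE1, a hydrophilin, was at 0.46 ± 0.15 (limma adjusted p = 0.0894), SOL4, of the pentose phosphate pathway, at 0.40 ± 0.12 (limma adjusted p = 0.0608), and GPH1, glycogen phosphorylase, at 0.28 ± 0.10 (limma adjusted p = 0.113). Among 122 cytoplasmic ribosomal proteins, 44 ribosome biogenesis genes, 66 mitochondrial ribosome genes, 45 respiration and TCA cycle genes and 19 heat-shock genes, 0 passed (2, 6, 7, 4 and 2 at an unadjusted p of 0.05). Their medians were −0.04, −0.09, −0.08, 0.02 and 0.06. In the first 3 of these lists 120, 43 and 64 estimates were below 0, against 2864 of all 5434 genes. A nearly uniform sign was thus also seen in lists without a called gene. The experiments did not share that direction. Medians of the 3 lists were 0.013, 0.024 and 0.056 in experiment 1 and −0.094, −0.19 and −0.20 in experiment 2. Experiment 2 alone had 7, 14 and 33 of their genes past the test (12.7% of all genes), and experiment 1 alone had 0. With the array subsets as a block, 19 of the Msn2/Msn4 targets were higher, and 57, 37 and 41 genes of the first 3 ribosomal lists were lower, where 17.2% of all genes were higher and 19.2% lower. In the pheromone pathway 1 of 25 genes rose and 2 fell, FAR1 among them. Of 45 Gcn4 targets 1 rose and 1 fell, of 29 iron uptake genes 0 and 1, of 25 sulphur genes 1 and 1, and of 22 ergosterol genes 2 and 0. These counts lie near the shares over all genes (4.38% higher and 3.07% lower). Those of 1 or 2 ranged from 0 to 2 on leaving out 1 array, and those of 0 were not recounted.

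The response was compared between the experiments, which both held both groups. Alone, experiment 1 gave 7 genes past the test (0.129%), all higher, and experiment 2 gave 688 (12.7%), 322 higher and 366 lower. The median residual SD was 0.0798 in experiment 1 and 0.079 in experiment 2. Among the 405 genes, the absolute change was larger in experiment 2 for 312 (77.0%), against 3555 of all 5434 genes (65.4%). The 405 were chosen in a fit to which experiment 2 gave 7 of 13 arrays. The median over the genes that rose was 0.15 against 0.24, and over those that fell −0.18 against −0.23. The test of the difference between experiments found 0 genes with limma at an adjusted p of 0.05, with 510 at an unadjusted p of 0.05 and a smallest adjusted p of 0.184. RNR3 had that smallest p, with 0.75 and 1.45. RNR2 followed (0.38 and 0.75), then CDC14 (−0.43 and −0.91), HIS2 (−0.32 and −0.75) and MRPL51, of the mitochondrial ribosome (0.08 and −0.19). HUG1 and ULI1 changed by similar amounts in the experiments (2.48 and 2.83, 1.73 and 1.77).

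**Figure D4:**
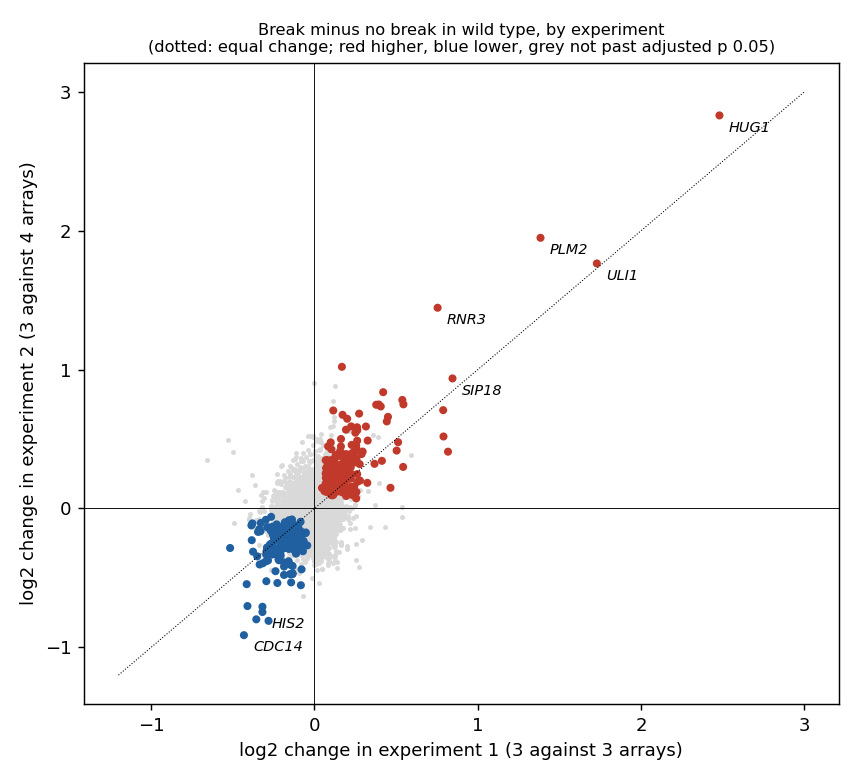
Log2 change with a break in wild type in experiment 1 (x axis) against experiment 2 (y axis), each point a gene and the dotted line equal change. The 405 called genes (red higher, blue lower) were chosen in a fit of both experiments, which favours equal signs, and have the same sign on both axes. PLM2 and RNR3 lie above the line.

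The wild-type response was set against that of scc2-4, whose control arrays are separate, in a fit of all 27 arrays. The break effects differed between genotypes for 139 genes (2.56%; limma interaction, adjusted p under 0.05), 70 more positive and 69 more negative in scc2-4, and for 945 at an unadjusted p of 0.05. Of the 405 genes of the wild-type response 76 were among them, 37 of the 238 that rose and 39 of the 167 that fell. In scc2-4 alone 192 genes were higher with a break (3.53%) and 176 lower (3.24%). The 238 genes had a median change of 0.082 in scc2-4 and the 167 a median of −0.062, values to be read with the fact that these genes were chosen by their change in wild type. With experiment in place of processing set as the block the count of 139 was 19.

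HUG1, PLM2 and RNR3 rose less in scc2-4. HUG1 rose by 1.37 there, a difference of −1.30 ± 0.13 (SE; 14 scc2-4 and 13 wild-type arrays; limma interaction adjusted p = 2.37e-07). PLM2 rose by 0.77 (difference −0.91 ± 0.19; adjusted p = 0.00796 by limma) and RNR3 by 0.60 (difference −0.53 ± 0.11; adjusted p = 0.0116 by limma). The interaction passed for 2 of 4 ribonucleotide reductase genes, 3 of 6 of their regulators, 2 of 19 checkpoint genes, 1 of 18 genes of strand exchange, 1 of 21 of excision and induced repair and 1 of 13 forkhead-associated factors and MBF targets. It passed for 2.56% of all genes, and the counts of 1 lie near that share. DUN1 is counted both as a regulator and as a checkpoint gene. RNR2, DUN1, DIN7 and RAD52 differed by −0.27, −0.25, −0.34 and −0.19. DIF1, one of the 3 regulators, went the other way and was more positive in scc2-4, by 0.38. RAD9 differed by −0.23 ± 0.06. RNR1 differed by −0.26 ± 0.10 and RNR4 by −0.16 ± 0.05, and did not pass (limma interaction adjusted p = 0.143 and 0.0801). Among cohesin and Smc5/6 genes, SMC1 changed by 0.06 in scc2-4 (difference −0.28 ± 0.05; adjusted p = 0.00275 by limma), PDS5 by 0.15 (difference −0.26 ± 0.06) and SMC6 by −0.0041 (difference −0.29 ± 0.04). ECO1 was more positive there, by 0.51 ± 0.07 (adjusted p = 0.000195 by limma), while IRR1 (−0.27 ± 0.08) and MCD1 (−0.18 ± 0.07) did not pass.

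On chromosome VI, 13 of the 21 genes that fell in wild type differed between genotypes, against 39 of the 167 over all chromosomes (23.4%). In scc2-4 1 of the 21 was lower, and 25 of the 167 passed the test there. The 21 were chosen by their fall in wild type, which also enters the difference. In all, 18 of the 117 genes of this chromosome differed, where 2.56% of all genes did, and 17 of the 18 were more positive in scc2-4. CDC14 changed by −0.10 in scc2-4 (difference 0.58 ± 0.08; adjusted p = 0.000161 by limma), HIS2 by −0.08 (difference 0.46 ± 0.08) and ROG3 by 0.09 (difference 0.51 ± 0.08). ULI1 itself rose more in scc2-4, by 2.35 (difference 0.60 ± 0.12; adjusted p = 0.00571 by limma). Of the cell-cycle genes, DSE1 and EGT2 were less negative in scc2-4 (differences of 0.39 ± 0.10 and 0.34 ± 0.08), and CLB2 differed by 0.22 ± 0.08 without passing (limma interaction adjusted p = 0.17).

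**Figure D5:**
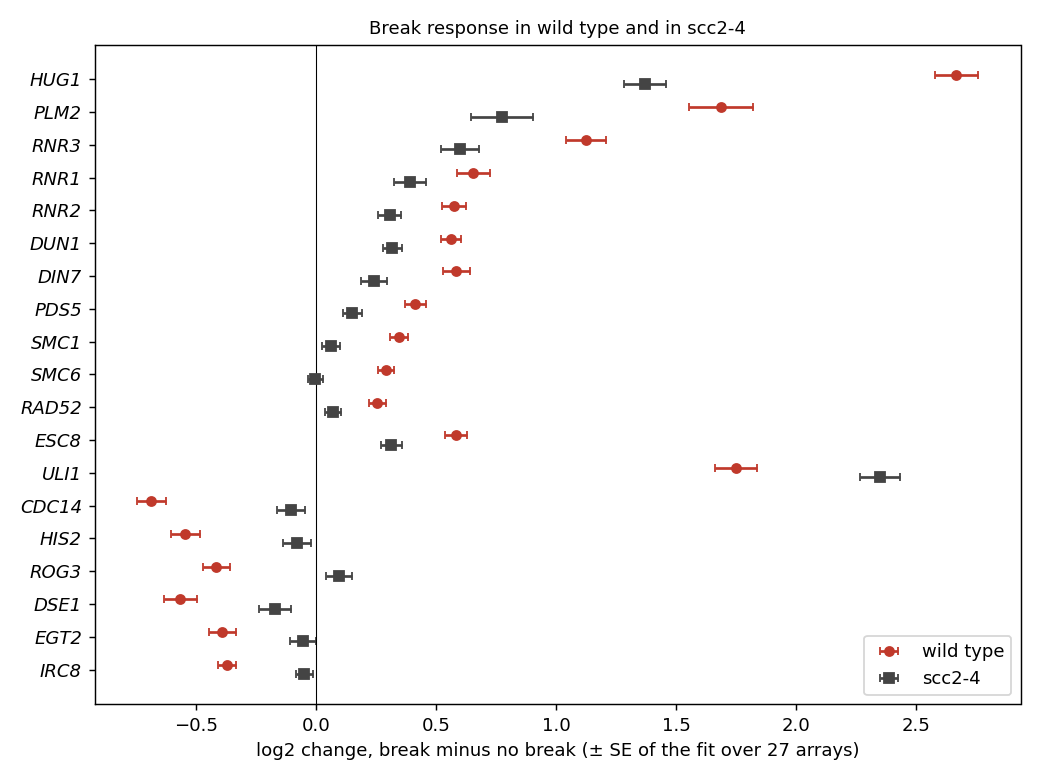
Log2 change with a break ± SE of the fit over 27 arrays (x axis) for 19 genes (y axis) in wild type (red circles) and scc2-4 (grey squares). HUG1, PLM2 and RNR3 lie further right in wild type, ULI1 lies further right in scc2-4, and CDC14, HIS2 and ROG3 lie below 0 in wild type and near 0 in scc2-4.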

How the data were processed

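RNA from 27 cultures was hybridised, 1 sample per array, to Affymetrix yeast arrays. The deposited table holds log2 values that the authors made with RMA, and the submitters' processing notes name R 2.9.2. Whether arrays were summarised together, and the centring of the columns, are not given in the sources used here. The number of arrays limits the precision.

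Of 5684 probe sets, 5468 had 1 gene symbol, 0 several and 216 none. Symbols were matched to the R64 gene table, all 5468 of them, and it also gave chromosomes and gene order. No build is named for the files, so no coordinates are printed. Where a gene had several probe sets (34 genes), the brightest on average was used, leaving 5434 genes. No promoter or protein sequences were used here, so the planned description of promoter motifs was not made.

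Break against no break, with experiment as a block, was tested with limma 3.58.1 (lmFit, eBayes) under R 4.3.3, two-sided, with Benjamini-Hochberg adjustment over all genes at 0.05. The difference between experiments was the interaction in the same 13 arrays. The genotype difference was the interaction over 27 arrays with 3 processing sets as the block: experiment 1, and wild type and scc2-4 of experiment 2, whose value distributions differ. The scripts were tested on simulated data. Genes were named by a rule: 12 largest rises, 12 largest falls, up to 4 members of each described list by size of change, 5 genes by each interaction p, and a fixed set. Members and the 42 lists were chosen with earlier results of these data known. Same-numbered arrays were not treated as pairs.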

Additional observations from a re-analysis of the deposited data

Results flagged for a closer look

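The difference of the break effect between scc2-4 and wild type passed limma's interaction test for 139 genes. Among the named genes the effect, as scc2-4 minus wild type on the log2 scale, was more negative for HUG1 (−1.30), PLM2 (−0.91), RNR3 (−0.53), RNR2 (−0.27), DUN1 (−0.25), DIN7 (−0.34), RAD52 (−0.19), SMC1 (−0.28), PDS5 (−0.26), SMC6 (−0.29), ESC8 (−0.27), RIF1 (−0.26) and FRD1 (−0.33). It was more positive for ULI1 (0.60), CDC14 (0.58), HIS2 (0.46), ROG3 (0.51), DSE1 (0.39), EGT2 (0.34), IRC8 (0.32), DIF1 (0.38) and PCL2 (0.32). The 5 smallest p-values belonged to other genes. YLL066W-B, a subtelomeric repeat gene, differed by −2.36, YIR042C by −1.42, YLR156W by 1.43, YLR157W-E by 1.22 and ASP3-1, an asparaginase gene in a tandem array, by 0.41. In wild type itself YIR042C, YLR156W, YLR157W-E and ASP3-1 changed by −0.19, −0.07, −0.01 and −0.01 and did not pass.

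After removal of the difference between experiments, 6 of 222 groups of the named genes held 1 array apart from the others by Dixon's test, which chance alone gives in about 1 in 20 groups. Array 2_1 with a break was highest for DUN1 (gap over range 0.696) and RAD53 (0.703), and array 2_2 with a break for PRI2 (0.699). Array 2_3 with a break was lowest for VTC3 (0.792), array 1_3 without a break for HTA1 (0.683) and array 2_2 without a break for UMP1 (0.594).

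Of the 216 probe sets without a gene symbol, 15 were higher with a break and 8 lower in a limma fit of their own. Among the 5434 named genes 4.38% were higher and 3.07% lower. The p-values of the 216 were adjusted over these probe sets only, so the shares are not strictly comparable. The largest changes by p were 1.20 for probe set 1778286 and 1.39 for probe set 1774888, both in the same direction in each experiment.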

How the results depend on the processing

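The 405 calls in wild type became 237 (126 higher, 111 lower) with a replicate block, 18 (15 and 3) with no experiment term, 7 (7 and 0) in experiment 1 alone, 688 in experiment 2 alone (366 lower), 736 (430 and 306) with all 27 arrays, 615 with array weights (261 lower) and 1976 (933 and 1043) with the array subset as a block, which was added after seeing the data, was derived from the same values and can make p-values too small. Leaving out 1 array gave 200 to 465 calls, 120 to 267 higher and 80 to 198 lower. The numbers did not pair the arrays: the correlations of same-numbered deviations ranged from −0.67 to 0.69, and 1 of 6 arrays with a break correlated best with its own number. The replicate block shared 208 calls with the 405. The other 6 planned settings gave 354 to 411 calls. Experiment dependence gave 0 calls with a replicate block, median centring, quantile normalization, dim genes left out, array weights and without any 1 array, and was not run under the other settings. With a replicate block the members higher were 4 of strand exchange and 2 of the proteasome (7 and 9 as reported), and 7 of the CLB2 cluster were lower (11 as reported). The genotype difference gave 19 calls with experiment as an additive block and 224 with a replicate block instead of 139. Of 60 named called genes, 13 lost the call without 1 array or more, 44 without an experiment term and 54 in experiment 1 alone, where only 6 arrays enter, and no named call reversed. Experiment 1 alone and the fits without 1 array hold fewer arrays. For the other settings the cause was not tested.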
